A study of Mus musculus with 12 samples.

Results

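The C-type lectin receptors examined were 9 mouse genes chosen by symbol, Clec4e, Clec4d, Clec4n, Clec7a, Clec5a, Clec4a2, Mgl2, Clec10a and Cd209a, of 55335 genes listed in the RNA-seq tables of bone marrow-derived dendritic cells (BMDCs). All 9 were listed, 8 had enough counts to be tested, and Cd209a did not. The cells came from C57BL/6 mice carrying Rosa26-CreER, a ubiquitously driven, tamoxifen-dependent Cre recombinase, with an intact Ctcf gene (WT), and per the methods of the study the mice were male and female and 8 to 12 weeks old. Marrow was cultured for 6 days with the cytokine GM-CSF, and the medium was replaced every 2 days. The methods of the study describe magnetic selection of floating CD11c+ cells. Per the study 4-OH-tamoxifen served to delete Ctcf in the knockout cells, and its wording leaves unclear whether WT cultures also received it. There were 4 groups of 3 libraries: WT (neither agent), WTL (LPS, 100 ng/ml for 3 h), WT + JSH23 (JSH-23, 100 µM for 3 h) and WTL + JSH23 (the same JSH-23 treatment given before the same LPS treatment). LPS, or lipopolysaccharide, is a cell wall component of Gram-negative bacteria, and JSH-23 is a small molecule that keeps the NF-κB subunit RelA out of the nucleus. The comparisons asked how LPS and JSH-23, alone and together, went with the mRNA of these receptors. Whether cells without JSH-23 were given its solvent, and whether JSH-23 was still present during LPS, is not in the labels. Replicates were numbered 4 to 6 in WT and WTL and 1 to 3 in the JSH-23 groups, so an effect of JSH-23 and a difference between separate sets of cultures cannot be told apart.

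C-type lectin receptors are surface proteins of myeloid cells that bind sugars and lipids of fungi, mycobacteria and dying or host cells. The activating members signal through ITAM tyrosine motifs, either their own or those of the adaptors FcRγ (gene Fcer1g) and DAP12 (Tyrobp), to the kinase Syk and from there to the Card9, Bcl10 and Malt1 complex and NF-κB. Inhibitory members carry an ITIM motif that recruits phosphatases such as SHP-1 (Ptpn6), and other members mainly take up glycosylated ligands for presentation.

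On GRCm38, with GENCODE M21 as annotation, 6 of the 9 genes lay on chromosome 6. Clec4a2 (chr6:123106428-123143999, + strand), Clec4n (chr6:123229843-123247021, + strand), Clec4d (chr6:123262111-123275265, + strand) and Clec4e (chr6:123281789-123289870, − strand) lay in the Clec4 gene cluster. Clec5a (chr6:40574894-40585821, − strand) and Clec7a (chr6:129461591-129472779, − strand) lay elsewhere on that chromosome. Mgl2 (chr11:70130329-70137550, + strand) and Clec10a (chr11:70156197-70170834, + strand) were neighbours, with 18.6 kb between them. Cd209a (chr8:3743397-3748984, − strand) was the only member on chromosome 8. The annotation gives Clec7a as a polymorphic pseudogene and the others as protein coding.

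The 250 bases before the start of the 3 receptors that were higher with LPS are shown, because this is the sequence next to the start site of the genes whose mRNA rose. They are from RefSeq on GRCm38.p6, 5′ to 3′ along the gene, and the window is chr6:123289872-123290121 (− strand) for Clec4e, chr6:123261857-123262106 (+ strand) for Clec4d and chr6:40585806-40586055 (− strand) for Clec5a. All starts and distances for these windows are those of RefSeq, which differ from the GENCODE M21 positions above. The Clec5a window thus reaches into the GENCODE gene, which ends at chr6:40585821. Capitals mark the letters of a C/EBP motif in Clec4e and of a PU.1 motif in Clec4d and Clec5a, each matched on the opposite strand.
Clec4e: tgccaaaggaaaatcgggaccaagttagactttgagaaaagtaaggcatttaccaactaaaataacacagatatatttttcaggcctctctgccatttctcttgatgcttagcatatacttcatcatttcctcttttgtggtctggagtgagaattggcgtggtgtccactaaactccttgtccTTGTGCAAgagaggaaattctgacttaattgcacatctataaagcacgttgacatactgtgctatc
Clec4d: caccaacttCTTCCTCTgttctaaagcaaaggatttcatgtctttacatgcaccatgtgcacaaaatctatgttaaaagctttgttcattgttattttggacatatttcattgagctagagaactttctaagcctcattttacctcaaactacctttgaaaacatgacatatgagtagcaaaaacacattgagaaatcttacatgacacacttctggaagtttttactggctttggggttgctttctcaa
Clec5a: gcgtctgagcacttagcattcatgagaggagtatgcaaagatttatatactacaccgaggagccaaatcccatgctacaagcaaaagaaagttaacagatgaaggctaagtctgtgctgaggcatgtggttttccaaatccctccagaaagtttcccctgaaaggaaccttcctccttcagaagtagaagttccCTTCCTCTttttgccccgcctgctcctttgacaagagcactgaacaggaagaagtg

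Promoters of 7 of the 9 receptors were matched in the RefSeq table, and 4 motifs were searched on both strands in the 250 bases before the start. The C/EBP letters TTGCNNAA, of a factor family of myeloid cells, were found in Clec4e alone, as TTGTGCAA, which holds the motif on the opposite strand and begins 66 bases before the start. They were present in 9.56% of the 32851 promoters of the table. The PU.1 letters AGAGGAAG were found in Clec5a, as CTTCCTCT, beginning 56 bases before the start, and in Clec4d, beginning 241 bases before it, against 3.67% of all promoters. The NF-κB letters, which are 3 G, any 2 bases and then TTTCC (1.41% of all promoters), and the AP-1 letters TGANTCA (6.75%) were in none of the 7 windows. The 4 motifs were searched separately, and a match was counted as letters only.

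Total expected counts ran from 24664724 to 34837847 per library, and no pair of libraries held identical values. All 11 dendritic cell markers listed, such as Itgax, H2-Aa and Zbtb46, were above 1 CPM (counts per 1e+06 in the TMM-scaled library) in every group, with a summed level between 16809 and 21994 CPM. Macrophage markers were also present (11 of 11 above 1 CPM in every group), at summed levels of 2817 to 2990 CPM in WT, 3250 to 3331 in WTL, 2180 to 2205 in WT + JSH23 and 2584 to 2693 in WTL + JSH23. Of 12 neutrophil markers 8 were tested, Ly6g, Elane, Retnlg and Cxcr2 stayed below 1 CPM, and the sum was 293 to 307 CPM in WT, 263 to 272 in WTL, 237 to 250 in WT + JSH23 and 206 to 222 in WTL + JSH23. The summed macrophage and neutrophil levels were thus lower in the JSH-23 groups, and their part in the receptor differences was not tested. Markers of mast cells, basophils and eosinophils summed to at most 2.00 CPM, and those of B and T cells to at most 1.5 CPM. In bulk RNA, fewer cells of a type and less RNA per cell cannot be told apart.

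With LPS, activating receptors were found both among the rises and among the falls. Clec4e, Clec4d and Clec5a rose, Clec7a, Clec4a2, Clec4n and Mgl2 fell, and Clec10a did not pass the test, where a change is called a rise or fall at an adjusted p under 0.05 (edgeR quasi-likelihood test, adjusted over 14357 genes). Thus 3 of the 8 receptors were higher and 4 lower in WTL than in WT, beside 31.0% of all genes tested higher and 34.7% lower. Only Clec4e, 1 of 8, also passed a 2-fold limit, beside 16.4% of all genes in either direction. With JSH-23, LPS raised 3 and lowered 5 of the 8, against 27.4% and 27.1% of all genes, and again Clec4e alone passed 2-fold, against 10.3% of all genes. With only 8 receptors, 1 gene more or less moves such a share widely, so the shares are given side by side as description. The median absolute log2 change of the 8 was 0.61 without JSH-23 and 0.60 with it, beside 0.39 and 0.28 over all genes.

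With JSH-23, 6 of the 8 receptors were higher and 2 lower, both without LPS and under LPS. Clec4n, Clec4d, Clec4e, Clec7a, Mgl2 and Clec10a rose, and Clec4a2 and Clec5a fell. Without LPS 18.8% of all genes were higher and 22.1% lower at an adjusted p under 0.05, and under LPS 24.5% and 24.2%. The changes were moderate: only Clec4a2 without LPS passed 2-fold, beside 5.37% of all genes, and none of the 8 did under LPS by edgeR, DESeq2 or limma, beside 7.00% of all genes, although all 8 passed an adjusted p under 0.05 and an unadjusted p under 0.05 by edgeR. The number past 2-fold rested on values close to the limit: without LPS it ran from 0 to 3 when each library was left out in turn and was 0 with DESeq2, and under LPS it was 1, namely Clec4a2 (log2 −1.04), without replicate 2 of WTL + JSH23. The median absolute log2 change of the 8 was 0.89 without LPS and 0.61 under LPS, beside 0.20 and 0.25 over all genes. The 3 libraries of the compared groups did not overlap for 8 of 8 receptors in either JSH-23 comparison, beside 51.5% of all genes without LPS and 54.8% under LPS. For LPS these were 7 of 8 beside 69.9% without JSH-23 and 8 of 8 beside 59.1% with it. The LPS and JSH-23 comparisons share libraries, so their values are given side by side and are not independent of each other.

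**Figure D1:**
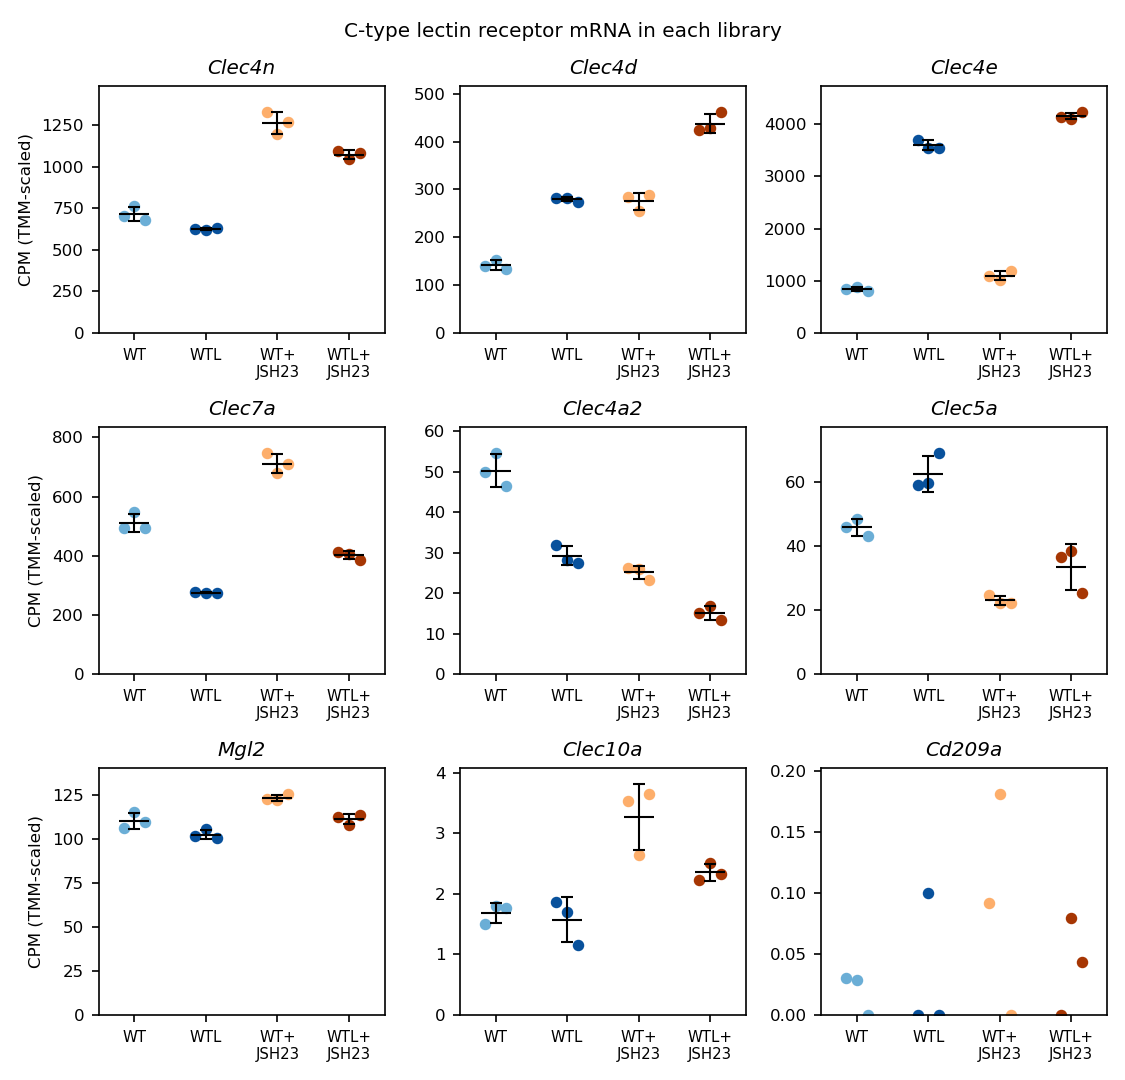
Level of each receptor in CPM (TMM-scaled, linear axis from 0) in each of the 12 libraries. Points are libraries and, except for Cd209a, black bars give the mean ± SD of the 3 libraries of a group. Clec4e stands at 3537 to 4222 CPM in the 6 LPS libraries and at 813 to 1182 CPM in the other 6.

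Clec4e encodes Mincle, the FcRγ-coupled receptor for mycobacterial cord factor. Its level was 834, 883 and 813 CPM in WT and 3703, 3537 and 3547 CPM in WTL. It was 1100.0, 1008 and 1182 CPM in WT + JSH23 and 4140.1, 4095 and 4222 CPM in WTL + JSH23. Every library with LPS was far above every library without, and within each LPS state the JSH-23 libraries were the higher ones. LPS raised Clec4e 4.26-fold without JSH-23 (log2 2.09, SE 0.05, adjusted p = 3.17e-19) and 3.79-fold with it (log2 1.92, SE 0.05, adjusted p = 2.04e-18). JSH-23 raised it 1.30-fold without LPS (log2 0.38, SE 0.05, adjusted p = 7.67e-07) and 1.15-fold under LPS (log2 0.21, SE 0.05, adjusted p = 0.000732). The LPS step was thus the large one for Mincle, and the JSH-23 step was small but beyond the spread of the libraries.

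Clec4d encodes MCL, also called Dectin-3, the neighbour and partner of Mincle. Its level was 141, 153 and 133 CPM in WT, 283, 282 and 274 CPM in WTL, 284, 255 and 288 CPM in WT + JSH23, and 423, 429 and 461 CPM in WTL + JSH23. The WTL libraries lay within the range of WT + JSH23, and both groups lay between WT and WTL + JSH23. LPS raised Clec4d 1.96-fold without JSH-23 (log2 0.97, SE 0.05, adjusted p = 4.47e-13) and 1.59-fold with it (log2 0.67, SE 0.05, adjusted p = 2.72e-10). JSH-23 raised it 1.94-fold without LPS (log2 0.95, SE 0.05, adjusted p = 2.88e-12) and 1.57-fold under LPS (log2 0.65, SE 0.05, adjusted p = 6.6e-10). Clec4d was thus higher with either agent and highest with both.

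Clec4n encodes Dectin-2, an FcRγ-coupled receptor for fungal mannans. It was measured at 704, 764 and 681 CPM in WT, 624, 617 and 632 CPM in WTL, 1325, 1194 and 1266 CPM in WT + JSH23, and 1093, 1045 and 1079 CPM in WTL + JSH23. The 6 JSH-23 libraries were all above the other 6, and within each set the LPS libraries were the lower ones. JSH-23 raised Clec4n 1.76-fold without LPS (log2 0.82, SE 0.04, adjusted p = 2.51e-12) and 1.72-fold under LPS (log2 0.78, SE 0.04, adjusted p = 3.71e-12). LPS lowered it 1.15-fold without JSH-23 (log2 −0.20, SE 0.04, adjusted p = 0.00045) and 1.18-fold with it (log2 −0.23, SE 0.04, adjusted p = 0.000103). The 3 FcRγ-coupled receptors were therefore alike in the direction of the JSH-23 change and unlike in that of LPS.

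Clec7a encodes Dectin-1, the β-glucan receptor, which carries its own ITAM-like motif. Its level was 495, 547 and 494 CPM in WT, 278, 273 and 276 CPM in WTL, 746, 678 and 712 CPM in WT + JSH23, and 413, 406 and 386 CPM in WTL + JSH23. The 4 groups did not overlap, and WT + JSH23 was the highest and WTL the lowest. LPS lowered Clec7a 1.86-fold without JSH-23 (log2 −0.89, SE 0.04, adjusted p = 1.54e-13) and 1.77-fold with it (log2 −0.83, SE 0.04, adjusted p = 9.18e-13). JSH-23 raised it 1.39-fold without LPS (log2 0.48, SE 0.04, adjusted p = 1.19e-08) and 1.46-fold under LPS (log2 0.54, SE 0.04, adjusted p = 1.52e-09). The LPS change and the JSH-23 change of Dectin-1 were thus opposite in sign.

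Clec5a encodes MDL-1, a DAP12-coupled receptor known from infection with dengue virus. Its level was 46.0, 48.6 and 43.3 CPM in WT, 59.2, 59.7 and 69.0 CPM in WTL, 24.6, 22.2 and 22.4 CPM in WT + JSH23, and 36.7, 38.4 and 25.4 CPM in WTL + JSH23. All JSH-23 libraries were below all libraries without it, and replicate 3 of WTL + JSH23 lay close to WT + JSH23. JSH-23 lowered Clec5a 2.00-fold without LPS (log2 −1.0, SE 0.10, adjusted p = 4.39e-08), just short of the 2-fold limit, and 1.86-fold under LPS (log2 −0.89, SE 0.10, adjusted p = 1.1e-07). LPS raised it 1.36-fold without JSH-23 (log2 0.44, SE 0.09, adjusted p = 0.000272) and 1.46-fold with it (log2 0.54, SE 0.10, adjusted p = 0.000165). This LPS rise depended on the scale: on log2(TPM + 1) with limma it was 0.04 without JSH-23 (adjusted p = 0.815) and 0.14 with it (adjusted p = 0.406), on a scale where the median of all genes was shifted by −0.21 and −0.14.

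Clec4a2 encodes DCIR, the inhibitory receptor of the set, which carries an ITIM motif. Its level was 49.8, 54.5 and 46.4 CPM in WT, 31.8, 28.1 and 27.5 CPM in WTL, 26.2, 25.9 and 23.2 CPM in WT + JSH23, and 15, 16.8 and 13.4 CPM in WTL + JSH23. WT was above all other libraries and WTL + JSH23 below them. LPS lowered Clec4a2 1.72-fold without JSH-23 (log2 −0.79, SE 0.07, adjusted p = 4.01e-09) and 1.67-fold with it (log2 −0.74, SE 0.08, adjusted p = 1.83e-07). JSH-23 lowered it 2.00-fold without LPS (log2 −1.0, SE 0.07, adjusted p = 2.31e-10) and 1.94-fold under LPS (log2 −0.95, SE 0.08, adjusted p = 4.51e-09). The inhibitory receptor was thus the only member of the 8 that fell with both agents, in all 4 comparisons. The 2-fold call without LPS rests at the limit, since the value ran from −1.05 to −0.94 when each library was left out in turn, and the adjusted p stayed at or below 9.14e-09. In 6 of 12 libraries some of its counts were divided with Clec4a4 by the authors' counting, and it overlaps the pseudogene Gm44132.

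Mgl2 and Clec10a encode the galactose-type lectins CD301b and CD301a, which take up ligands with terminal galactose or N-acetylgalactosamine. Mgl2 stood at 107, 116 and 109.6 CPM in WT, 102, 106 and 101 CPM in WTL, 123, 122 and 126 CPM in WT + JSH23, and 113, 108 and 114 CPM in WTL + JSH23. Relative to its level, its range over all 12 libraries was the narrowest of the 8, and each change was under 1.2-fold. LPS changed Mgl2 by −0.11 on the log2 scale without JSH-23 (SE 0.04, adjusted p = 0.0259) and by −0.15 with it (SE 0.04, adjusted p = 0.00391). JSH-23 changed it by 0.16 without LPS (SE 0.04, adjusted p = 0.0026) and by 0.12 under LPS (SE 0.04, adjusted p = 0.0203). The LPS fall without JSH-23 and the JSH-23 rise under LPS did not pass with DESeq2 (adjusted p = 0.155 and 0.0757). The first was also lost without WTL replicate 4 or 6 or WT replicate 5 (adjusted p from 0.0746 to 0.151), and the second without WTL + JSH23 replicate 1 or 3 or WTL replicate 4 or 6 (from 0.0506 to 0.0749).

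Clec10a was scarce, at 1.5, 1.79 and 1.76 CPM in WT, 1.86, 1.70 and 1.15 CPM in WTL, 3.53, 2.64 and 3.64 CPM in WT + JSH23, and 2.23, 2.51 and 2.33 CPM in WTL + JSH23. WT and WTL overlapped, and both lay below the JSH-23 libraries. JSH-23 raised Clec10a 1.95-fold without LPS (log2 0.96, SE 0.18, adjusted p = 0.000123) and 1.48-fold under LPS (log2 0.57, SE 0.20, adjusted p = 0.021). The LPS change was −0.08 without JSH-23 (SE 0.20, 95% interval −0.54 to 0.38, adjusted p = 0.737) and −0.48 with it (SE 0.17, adjusted p = 0.0242). The last of these missed the threshold with DESeq2 (adjusted p = 0.0545) and without replicate 1 or 3 of either JSH-23 group (from 0.0501 to 0.097). The rise under LPS was lost without WTL + JSH23 replicate 2 (adjusted p = 0.0626) or WTL replicate 6 (adjusted p = 0.103). Some counts of Clec10a and Mgl2 were divided between the 2 genes in all 12 libraries, since both counts were fractional while their sum was whole within 0.015.

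Cd209a, a mouse relative of DC-SIGN, had 0 to 5 counts per library and at most 0.181 CPM. It was at 0 in 5 libraries, and only 1 library had more than 3 counts, the number that a count of 0 still allows, which equals 0.0861 to 0.122 CPM. No difference between groups could be detected at this depth.

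**Figure D2:**
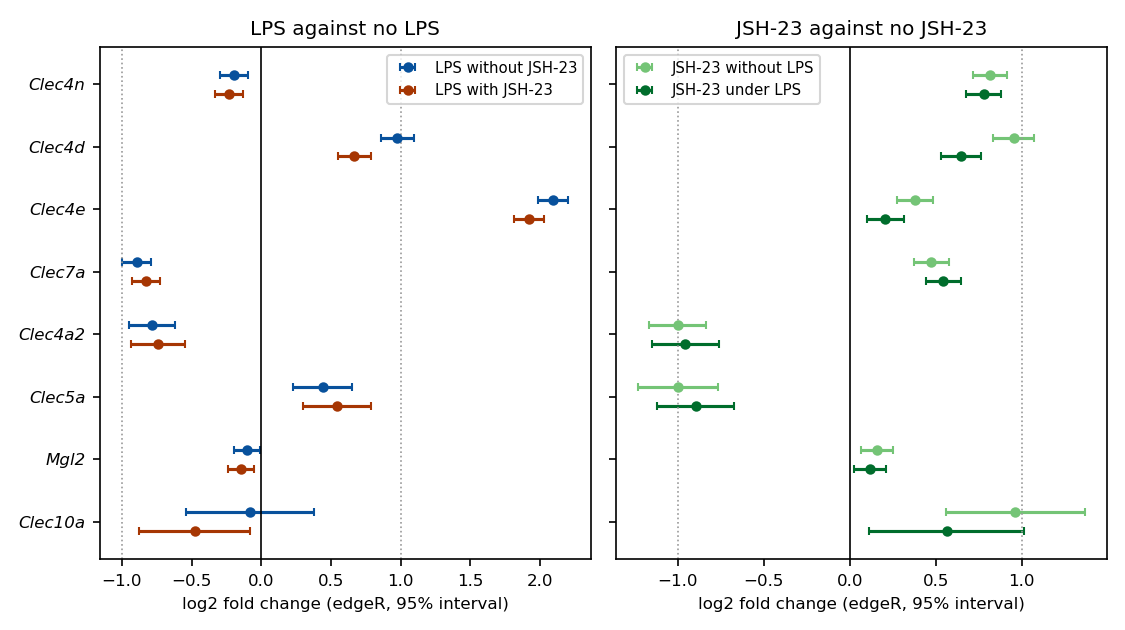
Log2 fold change of 8 receptors with LPS (left, WTL against WT and WTL + JSH23 against WT + JSH23) and with JSH-23 (right, WT + JSH23 against WT and WTL + JSH23 against WTL). Points are edgeR estimates, bars are 95% intervals and dotted lines mark 2-fold. Clec4e stands apart at 2.09 and 1.92 with LPS, and with JSH-23 the 6 rises lie between 0.12 and 0.96 and the 2 falls between −0.89 and −1.0.

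Whether the LPS change differed between JSH-23-treated and other cells was tested by the interaction, with-JSH-23 minus without. It passed for 1 of 8 receptors, Clec4d, beside 18.0% of all genes. For Clec4d the LPS change was smaller with JSH-23 by −0.31 on the log2 scale (SE 0.07, 95% interval −0.47 to −0.14, adjusted p = 0.00497), which is the difference between a 1.59-fold and a 1.96-fold rise. With limma on log2(TPM + 1), a scale that shifted the median interaction of all genes by 0.08, Clec4d did not pass (−0.19, adjusted p = 0.107) and Clec7a passed in its place (0.24, adjusted p = 0.0372). For Clec4e the interaction was −0.17 (95% interval −0.32 to −0.02, adjusted p = 0.0734), which missed the threshold in edgeR and passed it with DESeq2 (−0.20, adjusted p = 0.0198) and in edgeR without WTL + JSH23 replicate 3 (adjusted p = 0.0489), WT + JSH23 replicate 2 (0.00973) or WT replicate 5 (0.0427). For Clec4n it was −0.04 (−0.18 to 0.11), for Clec7a 0.07 (−0.07 to 0.21), for Mgl2 −0.04 (−0.17 to 0.09) and for Clec4a2 0.05 (−0.21 to 0.30). These intervals leave room for differences of up to 0.30 on the log2 scale. For Clec5a (0.10, −0.22 to 0.42) and Clec10a (−0.40, −1.01 to 0.21) the intervals were wider, and the interaction of Clec5a passed without WTL + JSH23 replicate 3 (0.26, adjusted p = 0.0471). The median absolute interaction was 0.09 for the 8 receptors and 0.18 for all genes.

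To set the receptors beside each other, levels per transcript length (TPM, transcripts per 1e+06) were used. In WT, Clec4n was the most abundant at 1263 ± 59.6 TPM (SD, n = 3) and ranked 100 among all genes. Clec4e (637 ± 28.9 TPM) and Clec7a (633 ± 28.8 TPM) followed with overlapping libraries, then Clec4d (234 ± 14.9 TPM), Mgl2 (134 ± 3.73 TPM), Clec4a2 (98.6 ± 8.84 TPM), Clec5a (55.6 ± 1.90 TPM) and Clec10a (2.19 ± 0.110 TPM). Apart from Clec4e and Clec7a, no neighbours in this order overlapped. In WTL, Clec4e led at 2125 ± 76.8 TPM (rank 57 among all genes), before Clec4n (862 ± 40.9 TPM), Clec4d (367 ± 4.87 TPM) and Clec7a (267 ± 10.6 TPM). Mgl2 (98.6 ± 1.83 TPM), Clec5a (57.5 ± 6.89 TPM), Clec4a2 (45.4 ± 3.72 TPM) and Clec10a (1.77 ± 0.399 TPM) came after them, with no overlap between neighbours. The lead thus passed from Dectin-2 to Mincle with LPS.

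In WT + JSH23, Clec4n again led at 2216 ± 92.8 TPM (rank 47), before Clec7a (863 ± 29.4 TPM) and Clec4e (842 ± 51.7 TPM), whose libraries overlapped, and Clec4d (457 ± 27.6 TPM). Mgl2 followed at 149 ± 1.28 TPM, Clec4a2 at 49.0 ± 3.59 TPM, Clec5a at 28.3 ± 0.913 TPM and Clec10a at 4.59 ± 0.186 TPM. In WTL + JSH23, Clec4e led at 2641 ± 57.5 TPM (rank 42), before Clec4n (1619 ± 62.6 TPM), Clec4d (629 ± 20 TPM), Clec7a (429 ± 22.5 TPM) and Mgl2 (116 ± 3.23 TPM). Clec5a (32.0 ± 7.70 TPM) and Clec4a2 (24.7 ± 2.18 TPM) overlapped in that group. Clec10a came after them at 2.72 ± 0.117 TPM, and Cd209a was last in every group at no more than 0.50 TPM in a library. The change of lead with LPS was thus found with and without JSH-23.

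The summed TPM of the 9 receptors was 3059 ± 143 in WT, 3825 ± 132 in WTL, 4608 ± 164 in WT + JSH23 and 5494 ± 122 in WTL + JSH23, with no overlap between groups. The order of WTL and WT + JSH23 depended on the scale. As a share of total counts, not divided by length, the 9 held 0.254% to 0.277% in WT and 0.422% to 0.436% in WTL. The share was 0.371% to 0.406% in WT + JSH23, below WTL, and 0.581% to 0.596% in WTL + JSH23. Clec4e made up 20.8% of the summed TPM in WT and 55.6% in WTL, and 18.3% and 48.1% in the JSH-23 groups without and with LPS. Clec4n made up 41.3% in WT, 22.5% in WTL, 48.1% in WT + JSH23 and 29.5% in WTL + JSH23. The ratio of Clec4e to its partner Clec4d in TPM was 2.73 in WT, 5.79 in WTL, 1.84 in WT + JSH23 and 4.2 in WTL + JSH23. The ratio was thus higher with LPS and lower with JSH-23 in each pair of groups.

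**Figure D3:**
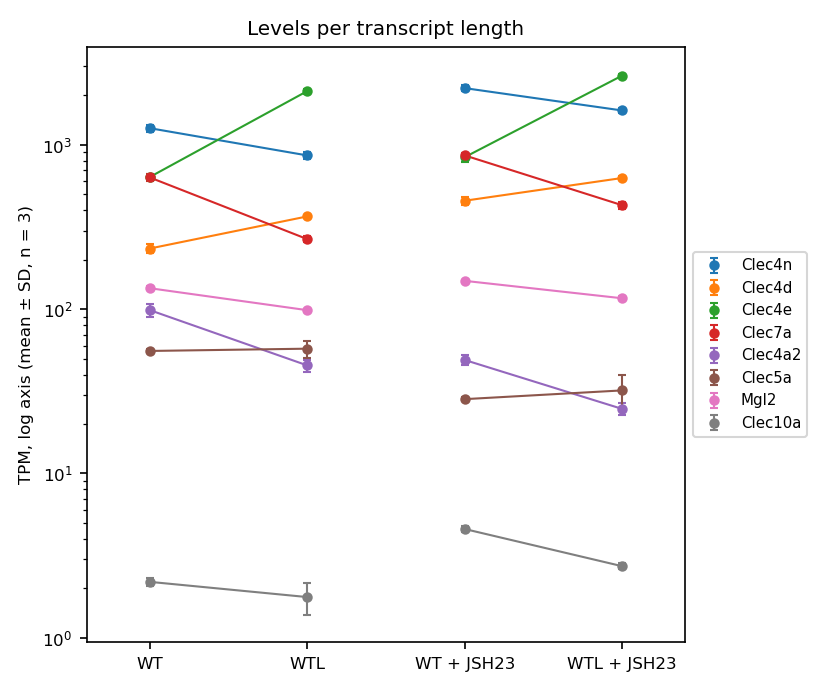
Mean TPM ± SD of 3 libraries for 8 receptors in the 4 groups, on a log axis, with lines joining the groups without and with LPS. Clec4n leads in WT (1263 TPM) and WT + JSH23 (2216 TPM), and Clec4e leads in WTL (2125 TPM) and WTL + JSH23 (2641 TPM).

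The 4 receptors of the Clec4 cluster were set beside the other genes of that cluster. In GENCODE M21 the interval chr6:122921848-123289870 (368.0 kb) holds 9 protein-coding genes, all of them Clec4 genes, in the order Clec4a1, Clec4a3, Clec4a4, Clec4b1, Clec4a2, Clec4b2, Clec4n, Clec4d and Clec4e. The 5 genes tested at the Clec4a1 end fell with JSH-23 and the 3 at the Clec4e end rose, with and without LPS. Without LPS the log2 changes were −1.30 for Clec4a1 (SE 0.07), −1.17 for Clec4a3 (SE 0.09), −1.58 for Clec4a4 (SE 0.26), −1.47 for Clec4b1 (SE 0.14) and −1.0 for Clec4a2, then 0.82 for Clec4n, 0.95 for Clec4d and 0.38 for Clec4e. Under LPS they were −1.58, −1.36, −1.25, −1.04 and −0.95, then 0.78, 0.65 and 0.21, in the same order of genes. All passed an adjusted p under 0.05 in both comparisons, the highest being 0.000901 for Clec4a4 under LPS. Clec4b2, with at most 6 counts in a library, was not tested. Clec4a4 was scarce, with a mean of 1.73 CPM in WT and 0.584 CPM in WT + JSH23. Some of its counts were divided with Clec4a2 in 6 of 12 libraries, so these 2 genes were not measured fully apart. With LPS alone the rises and falls were mixed along the cluster: Clec4a1, Clec4d and Clec4e rose, the first of these by 0.20 (SE 0.07, adjusted p = 0.0129), Clec4a3, Clec4b1, Clec4a2 and Clec4n fell, and Clec4a4 did not pass (−0.31, SE 0.23, adjusted p = 0.243).

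**Figure D4:**
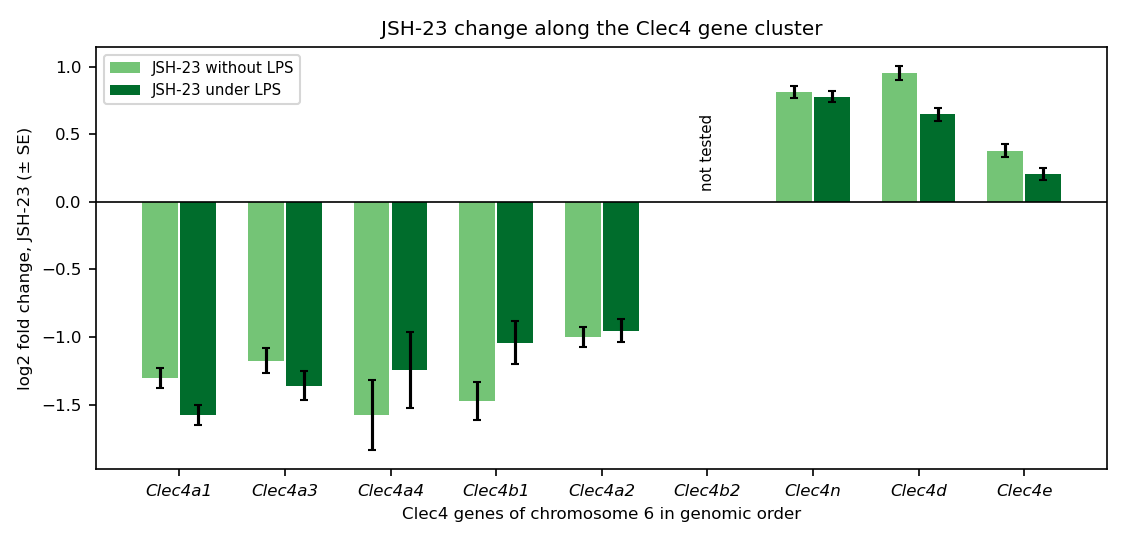
Log2 fold change with JSH-23 (bars, with SE) for the Clec4 genes of chromosome 6 in genomic order, without LPS and under LPS. The 5 tested genes from Clec4a1 to Clec4a2 lie between −0.95 and −1.58, and Clec4n, Clec4d and Clec4e lie between 0.21 and 0.95.

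Other C-type lectins were described by a list of 28 genes, of which 16 were tested. With LPS alone, 3 passed the 2-fold limit upwards and 4 downwards, beside 16.4% of all genes in either direction. Cd69, an early activation marker of lymphocytes and myeloid cells, rose by 1.13 on the log2 scale (SE 0.05, adjusted p = 1.02e-13), and Ly75, the endocytic receptor DEC-205, rose by 1.03 (SE 0.04, adjusted p = 1.02e-14). Clec1a (−2.18, SE 0.36), Clec9a (−1.84, SE 0.20), a receptor for dead cells, and Clec1b (−1.49, SE 0.21) were lower. All of these were scarce: mean levels in WT and WTL were 1.42 and 0.32 CPM for Clec1a. They were 3.58 and 1.0 CPM for Clec9a and 3.92 and 1.42 CPM for Clec1b. The remaining calls, Cd209c (1.31) and Clec2i (−1.39), fell outside the naming rule and were named after their values were seen, and Cd209c was under 1 CPM. With JSH-23 present, the 3 lectins that LPS changed by more than 2-fold were all lower, namely Clec1a (−2.27), Clec1b (−1.95) and Clec9a (−1.82). Beside these 3 of 16, 10.3% of all genes passed 2-fold in either direction.

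With JSH-23, 1 of the 16 lectins rose and 6 fell past the 2-fold limit, both without LPS and under LPS. Over all genes 5.37% passed it in either direction without LPS and 7.00% under LPS. The riser was Colec12, a scavenger collectin, at 1.05 without LPS (SE 0.15, adjusted p = 8.13e-06) and 1.29 under LPS (SE 0.16, adjusted p = 8.38e-07). Cd69 had the largest fall of the 16, from 40.9 to 10.7 CPM without LPS (log2 −1.94, SE 0.07) and from 89.2 to 16.4 CPM under LPS (log2 −2.44, SE 0.06). Clec12a, an inhibitory receptor, fell by 1.46 and 1.52 on the log2 scale, and the other 4 were the Clec4 genes of the cluster given above. At an adjusted p under 0.05 alone, 2 lectins were higher and 8 lower without LPS, and 3 and 8 under LPS. Beside these, 18.8% of all genes were higher and 22.1% lower without LPS, and 24.5% and 24.2% under LPS. The median log2 change of the 16 was −0.21 without LPS and −0.41 under LPS, where that of the 8 receptors was 0.43 and 0.38 and that of all genes −0.01 and 0.02.

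The signalling genes downstream of the receptors were described by a list of 26, all tested. With LPS alone 11 were higher and 10 lower at an adjusted p under 0.05, and 2 and 3 of these by more than 2-fold. Over all genes 31.0% were higher and 34.7% lower, and 16.4% passed 2-fold in either direction. Malt1, the protease of the Card9 complex, rose by 2.14 (SE 0.05) and Src, a kinase, by 1.38 (SE 0.04), while Map3k14, the kinase of the non-canonical NF-κB pathway, Inpp5d, the lipid phosphatase SHIP-1, and Rubcn changed by −2.64, −1.95 and −1.38. With JSH-23 present, Malt1 (2.34) and Src (1.24) rose and Map3k14 (−1.75) and Inpp5d (−1.41) fell past 2-fold, beside 10.3% of all genes in either direction. With JSH-23 itself 2 of the 26 were higher and 19 lower without LPS, and 4 and 15 under LPS, at an adjusted p under 0.05. The shares of all genes were 18.8% higher and 22.1% lower without LPS, and 24.5% and 24.2% under LPS. Past 2-fold were Nfatc2 (−1.5) and Pik3cd (−1.38) without LPS and Lyn (−1.20), a kinase that phosphorylates ITAMs and ITIMs, under LPS. Of all genes 5.37% passed 2-fold in either direction without LPS and 7.00% under LPS. The median log2 change of the list with JSH-23 was −0.25 without LPS and −0.23 under LPS.

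The direct partners of the receptors were named in every comparison. Fcer1g, the FcRγ adaptor of Mincle, MCL and Dectin-2, fell with JSH-23 by 0.27 without LPS (SE 0.05, adjusted p = 7.63e-05) and by 0.51 under LPS (SE 0.05, adjusted p = 1.23e-08), where those 3 receptors rose. Tyrobp, the DAP12 adaptor of MDL-1, fell by 0.14 and 0.27 (SE 0.04 each). Ptpn6, the phosphatase SHP-1, fell by 0.88 and 0.81 (SE 0.04 each), beside its receptor Clec4a2, which fell by 1.0 and 0.95. Syk, the kinase below the activating receptors, stood at 567 CPM in WT, 1076 in WTL, 538 in WT + JSH23 and 786 in WTL + JSH23. It rose with LPS by 0.92 without JSH-23 (SE 0.03) and by 0.55 with it (SE 0.03), a difference of −0.38 that passed the interaction test (adjusted p = 9.04e-06). Card9 fell with LPS by 0.98 and 0.60, Bcl10 rose by 0.69 and 0.48, and Malt1 rose by 2.14 and 2.34, without and with JSH-23 in that order. The members of this complex thus did not move one way with LPS. LPS changed Fcer1g by 0.35 without JSH-23 (adjusted p = 1.67e-06) and by 0.11 with it (adjusted p = 0.0625). For Tyrobp the LPS changes were −0.07 (adjusted p = 0.0803) and −0.20 (adjusted p = 8.97e-05), and for Ptpn6 they were 0.02 (adjusted p = 0.581) and 0.10 (adjusted p = 0.0441). JSH-23 lowered Bcl10 by 0.20 without LPS and 0.41 under LPS and Malt1 by 0.38 and 0.18. Syk fell with JSH-23 under LPS (−0.45, adjusted p = 1.91e-10) and gave −0.08 without LPS (adjusted p = 0.0677), while Card9 fell without LPS (−0.37, adjusted p = 1.5e-05) and gave 0.00 under LPS (adjusted p = 0.975). The adaptors, kinase and phosphatase were therefore lower with JSH-23 in each case that passed the test.

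**Figure D5:**
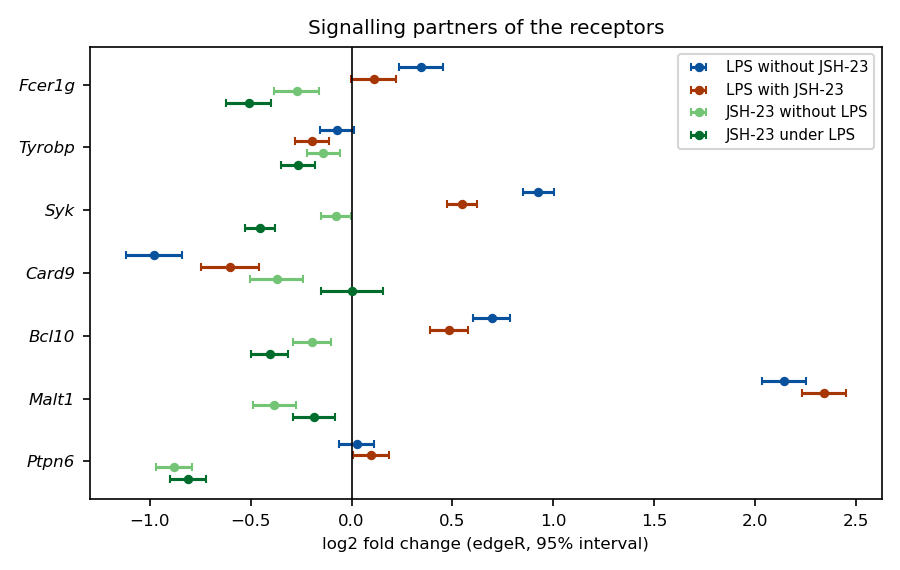
Log2 fold change (edgeR, with 95% interval) of 7 signalling partners in the LPS and JSH-23 comparisons. Malt1 stands at 2.14 and 2.34 with LPS, Card9 at −0.98 and −0.60, and with JSH-23 Ptpn6 at −0.88 and −0.81 and Fcer1g at −0.27 and −0.51.

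For each receptor the protein-coding genes with the most similar pattern over the 12 libraries were taken as those with the smallest root mean square (RMS) difference in centred log2 CPM, among 7692 candidates with a mean of at least 10 CPM over these libraries. The closest genes were Usp53 for Clec4e (RMS 0.101), Atp13a3 for Clec4d (0.0826), Psmd5 for Clec4n (0.0717) and Srpk2 for Clec7a (0.0911). For Clec5a it was Pot1b (0.0974), for Clec4a2 Evi2 (0.126), for Mgl2 Itgb2 (0.0353) and for Clec10a Mgst1 (0.182). The next in order were Fignl2, Lrp12, Creg1, Pcyt1a, Itga4, Pik3r6, Cnpy2 and Ypel5, in the same order of receptors. A small RMS did not mean that every single change was shared. For example, Usp53 gave −0.01 with JSH-23 under LPS by edgeR (adjusted p = 0.838), where Clec4e rose by 0.21. Among the receptors themselves the most alike pair was Clec4n and Clec10a (RMS 0.201), and the least alike was Clec4e and Clec4a2 (RMS 1.53), which share the Clec4 cluster.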

How the data were processed

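Bulk RNA-seq was analysed for 12 BMDC libraries, grouped by sample titles. Per the methods of the study, reads were trimmed with Trim Galore, aligned to mm10 with STAR (2.6.0c in the submitters' notes, another release in the reporting summary of the study) and quantified per gene with RSEM (GENCODE release not given in the sources used here). The labels name an rRNA depletion kit and the methods a poly(A) kit, which was not settled. The deposited expected counts are not normalized and divide read pairs that fit several genes, so 7.75% to 8.52% of genes had fractional values in a library. The authors' TPM values and effective lengths are from RSEM.

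Symbols and positions came from GENCODE M21 (55154 of 55335 identifiers matched). Expected counts were rounded and tested with the quasi-likelihood F-test of edgeR 4.0.16 in R 4.3.3 (filterByExpr, TMM, 14357 genes, all 12 libraries, 1 mean per group, 8 residual degrees of freedom), with Benjamini-Hochberg adjustment over all genes and 2-fold as an additional limit. CPM used TMM-scaled library sizes, and log2 CPM a prior count of 2. Alternatives were DESeq2 1.42.0, other scalings and filters, limma 3.58.1 on log2(TPM + 1), a replicate block and leaving out each library. The members and gene lists were chosen with earlier results of these data known. The naming rule took all members, the direct partners, and per list and comparison up to 3 rises and 3 falls past 2-fold with at least 1 CPM in the higher group. The study states biological replicates, and the labels name no batch.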

Additional observations from a re-analysis of the deposited data

Results flagged for a closer look

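The interaction test of edgeR was read for the 8 receptors, 16 other C-type lectins and 26 signalling genes tested, and not for the marker genes. In 19 of them the LPS change depended on JSH-23, at an adjusted p under 0.05. Among the receptors this was Clec4d, where the rise with LPS was smaller with JSH-23 and the interaction was −0.306 on the log2 scale (adjusted p = 0.00497). Among other C-type lectins the interaction was 0.295 for Mrc1, −0.257 for Ly75, 0.525 for Clec2i and −0.507 for Cd69. Among the partners it was −0.237 for Fcer1g, −0.377 for Syk, 0.376 for Card9, −0.21 for Bcl10 and 0.198 for Malt1. Among the kinases, phosphatases and regulators it was 0.253 for Vav1, −0.41 for Lyn, 0.54 for Inpp5d, 0.778 for Rubcn, 0.283 for Cbl, 0.565 for Pik3cd and 0.885 for Map3k14. For the NFAT factors it was −0.351 for Nfatc1 and 1.19 for Nfatc2, where LPS gave −0.56 without JSH-23 and 0.62 with it. Of all 14357 genes tested, 18.0% passed this test.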

How the results depend on the processing

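The sign and the call at an adjusted p under 0.05 were kept for every tested receptor in the JSH-23 comparison without LPS, under 56 combinations of receptor and setting and 96 of receptor and left-out library. In the other comparisons, low or small changes moved across the threshold, and the cause was not tested. Counts of receptors past 2-fold sat close to that limit. With LPS alone the count of 1 became 2 with DESeq2 and with RLE size factors, 3 with limma on log2(TPM + 1) and 7 by adjusted p alone, and 1 to 2 with libraries left out (2 without WT replicate 5). For LPS with JSH-23 it became 2 with TPM and 8 by adjusted p alone. For JSH-23 under LPS the count of 0 became 8 by adjusted p alone and 0 to 1 with libraries left out (1 without WTL + JSH23 replicate 2). For JSH-23 without LPS the count of 1 became 0 with DESeq2, RLE, upper quartile scaling, TPM and the compared groups alone, 2 with a minimum mean of 1 CPM, 8 by adjusted p alone, and 0 to 3 with libraries left out: 0 without replicate 1, 2 or 3 of WTL + JSH23, 3 of WT + JSH23, or 5 or 6 of WTL, 2 without replicate 1 of WT + JSH23 or 5 or 6 of WT, and 3 without replicate 2 of WT + JSH23. For the interaction the count of 1 became 2 with DESeq2, RLE, no low-count filter and the replicate block, 0 with a 2-fold limit, 1 with TPM (Clec7a in place of Clec4d), and 1 to 3 with libraries left out (3 without WTL + JSH23 replicate 3, and 2 without WT + JSH23 replicate 2 or WT replicate 5).

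Of the other lectins, adjusted p alone gave 14, 10 and 11 calls for LPS without JSH-23, LPS with it and JSH-23 under LPS, TPM gave 3 and 4 for the first and last of these, and a 2-fold limit left 0 for the interaction. Of the signalling genes, adjusted p alone gave 21, 21, 19 and 21 calls for LPS without and with JSH-23 and JSH-23 under and without LPS, TPM gave 1 for the last, and a 2-fold limit left 1 for the interaction. Changes of sign concerned values that passed in neither setting: Clec10a with LPS alone ran from −0.208 to 0.0784 with libraries left out (0.0784 without WTL replicate 6), and interactions were 0.0985 for Clec4n and 0.0900 for Mgl2 with TPM, −0.0846 to 0.000555 for Clec4n with libraries left out (0.000555 without WT + JSH23 replicate 1), −0.0382 to 0.119 for Clec4a2 (−0.0382, −0.00691 and −0.0162 without WTL + JSH23 replicate 2, WT + JSH23 replicate 3 and WT replicate 5) and −0.00157 to 0.261 for Clec5a (−0.00157 without WTL + JSH23 replicate 2, and 0.261 without its replicate 3, where it passed at an adjusted p of 0.0471). The TPM scale shifted the median of all genes by −0.21 with LPS alone, and levels as TMM-scaled counts per kb moved beyond 1 SD in 27 of 36 cases and kept the order of the receptors in each group.

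Same-numbered libraries did not deviate together (correlations from 0.0142 to 0.0614), so the replicate numbers were not taken as pairs, although all but replicate 1 of the JSH-23 groups correlated best with their own number. With the replicate block, Clec4e also passed the interaction (−0.17, adjusted p = 0.0264), giving 2 calls. The JSH-23 comparisons share no replicate numbers and had no block. With 3 libraries a group, changes near 1.1-fold and genes near 2 CPM were at the limit of what passed.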

Other observations

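Of the 28 other C-type lectins listed, 12 were too low to be tested. Cd207, the Langerhans cell lectin langerin, had at most 6 counts in a library, as did Clec4b2 of the Clec4 cluster. Clec11a, a secreted lectin, reached 10 counts, Clec12b 5, Cd209d 4, Clec4f, a Kupffer cell lectin, 2 and Cd209e 1. Clec4g, Clec14a, Cd209b, Cd209f and Cd209g had 0 counts in all 12 libraries. Together with Cd209a, 5 further genes of the Cd209 family were therefore at or near 0.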
